A study of Mus musculus with 12 samples.

Results

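A set of 92 annotated 3′ UTRs, of the 20586 in the deposited count table, had reads in RNA precipitated with an antibody to CPEB4 and almost none in total cell RNA. Members were chosen by their counts: the set holds every 3′ UTR with a summed raw count of at most 8 over the 4 libraries of total RNA (Input) and of at least 100 over the 4 libraries of CPEB4 precipitate (CPEB4 IP). It makes up 1.81% of the 5095 features that reached 100 CPEB4 IP counts. Both limits are set on measured counts, so the Input level, the CPEB4 IP level and the distance between them are given as descriptions and carry no test. The level in the control precipitate (IgG IP), the width of the 3′ UTRs and the function of their genes were not used to choose them. Raw counts can depend on width, however, so width is not independent of the limits. Of the 92, 89 carried a gene symbol and 26 had no Input count at all.

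The study compared 3 groups of 4 libraries, all from 3T3-L1, an immortalized mouse preadipocyte line. Per the labels, cells were induced until day 2 with 2 µM rosiglitazone, 10 µg/mL insulin, 1 µM dexamethasone and 0.5 mM IBMX and then kept in insulin until day 8. The resulting adipocytes were exposed for 24 h to 500 µM of free fatty acids, of which 300 µM was palmitic, 100 µM oleic and 100 µM linoleic acid. Every group shares this exposure and the design holds no untreated cells. The groups were total RNA of the lysate (Input), RNA pulled down with a control immunoglobulin (IgG IP) and RNA pulled down with anti-CPEB4 (CPEB4 IP). Only the Input RNA was selected for poly(A), so absence from total RNA and loss at poly(A) selection cannot be told apart. PCR ran for 12 or 18 cycles, with no label assigning a number to a library. Separate cultures are not stated for the replicates, and the p-values below reflect the spread between these libraries alone, which may be technical.

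CPEB4 is an RNA-binding protein that recognises U-rich elements in 3′ UTRs and recruits the machinery that lengthens or shortens the poly(A) tail, which sets how well an mRNA is translated. RNA immunoprecipitation recovers the mRNAs bound to such a protein, together with RNA that sticks to the beads or to any antibody. For that reason the level in a control precipitate is read beside the level in the specific one, and the level in total RNA shows how abundant the transcript was to begin with.

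Depth differed between the groups. Input libraries held 858028 to 1578084 counts, IgG IP libraries 88013 to 622976 and CPEB4 IP libraries 1114911 to 1159188. A single feature held 688554 of the 1196595 IgG IP counts. The TMM factors of IgG IP replicates 1 to 4 were 1.415, 1.479, 0.6075 and 0.5365. Their TMM-scaled library sizes ran from 126717 to 329978. The chi-square between libraries of a group, divided by its degrees of freedom, was lower within replicates 1 and 2 or 3 and 4 than across these pairs. In IgG IP it was 1.63 and 1.64 within pairs and 13.9 to 16.3 across. In CPEB4 IP it was 4.57 and 3.09 within and 20.1 to 33.8 across, and in Input 10.9 and 25.9 within and 32.6 to 40.7 across. The SDs, SEs and p-values below nevertheless treat the 4 libraries of a group as separate replicates, except where a block is named. Levels below are in CPM, counts per 1000000 of the TMM-scaled library size, and a count of 3 corresponded to between 9.09 and 23.7 CPM in a single IgG IP library. Adipocyte markers from a list of 15 genes, among them Fabp4 and Adipoq, summed to between 15530 and 32340 CPM over the Input libraries, and none of the 15 was without an Input count. Summed fibroblast and preadipocyte markers lay between 1135 and 2287 CPM in Input, muscle markers between 218.6 and 325.8, macrophage and lymphocyte markers between 66.43 and 378.6, neuron markers between 29.96 and 279.4 and endothelial markers between 0 and 72.96 CPM.

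The near absence from Input was not spread evenly over the 4 Input libraries. The members' counts summed to 263 in Input replicate 1, 52 in replicate 2, 8 in replicate 3 and 41 in replicate 4. A member was at 0 counts in 35 cases in replicate 1, in 79 in replicate 2, in 89 in replicate 3 and in 82 in replicate 4. Replicate 1 thus held most of the reads, and 42 members had their Input counts in that library alone. Of the rest, 8 had counts in 1 other library, 15 in 2 libraries and 1 in 3, while no member had a count in all 4.

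**Figure D1:**
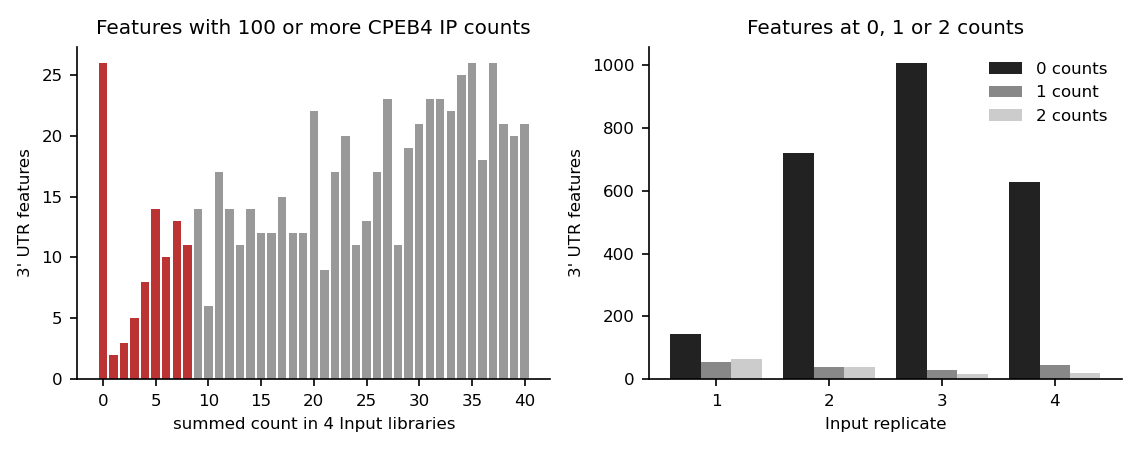
Left, number of 3′ UTR features (vertical axis) by summed count over the 4 Input libraries (horizontal axis, 0 to 40) among the 5095 features with at least 100 CPEB4 IP counts, with members in red; 26 features lie at 0 and 2 at a count of 1. Right, number of the same features with 0, 1 or 2 counts in each Input library, where features at 0 outnumber those at 1 in every library.

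Among all 5095 features with at least 100 CPEB4 IP counts, the Input total was 0 for 26, 1 for 2, 2 for 3 and 3 for 5. The number of features thus dropped from 26 to 2 between an Input total of 0 and of 1 and then rose to 14 at 5 counts. Exact zeros in single Input libraries were far more common still. Replicate 1 had 144 of the 5095 at 0 and 53 at 1, replicate 2 had 719 at 0 and 39 at 1, replicate 3 had 1008 at 0 and 29 at 1, and replicate 4 had 627 at 0 and 46 at 1. The CPEB4 IP libraries did not show this excess of 0 over 1 to that extent: of the 5481 features with at least 100 Input counts, between 70 and 199 were at 0 and between 116 and 189 at 1. Abundant transcripts held such zeros as well: 42 of the 2484 features with at least 300 Input counts had none in Input replicate 3. An Input count of 0 therefore occurred in single libraries without absence from the others. The cause of these zeros was not tested.

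Whether the same 3′ UTRs are near absent in libraries that did not choose them was read by applying the rule, with its limits at 4 Input and 50 CPEB4 IP counts, to a pair of replicates and looking at the other pair. Replicates 1 and 2 chose 259 features. In replicates 3 and 4, 61 of them (23.6%) had at most 4 Input counts, against 336 (6.59%) of all features with at least 100 CPEB4 IP counts. Their median Input count there was 24, with quartiles of 6 and 50.5 and a highest value of 209. Replicates 3 and 4 chose 280 features, of which 48 (17.1%) had at most 4 Input counts in replicates 1 and 2, against 241 (4.73%) of all such features. The chosen features and these backgrounds differ in depth. The former needed 50 CPEB4 IP counts in the choosing pair, the latter 100 over all 4 libraries. Most features that looked absent in a pair were counted in the other. The CPEB4 IP level carried over more often, with at least 50 counts in the other pair for 190 (73.4%) of the first set and 253 (90.4%) of the second. Both limits were met in both pairs by 37 features, which the limits make members by construction, and 18 of these had no Input count.

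**Figure D2:**
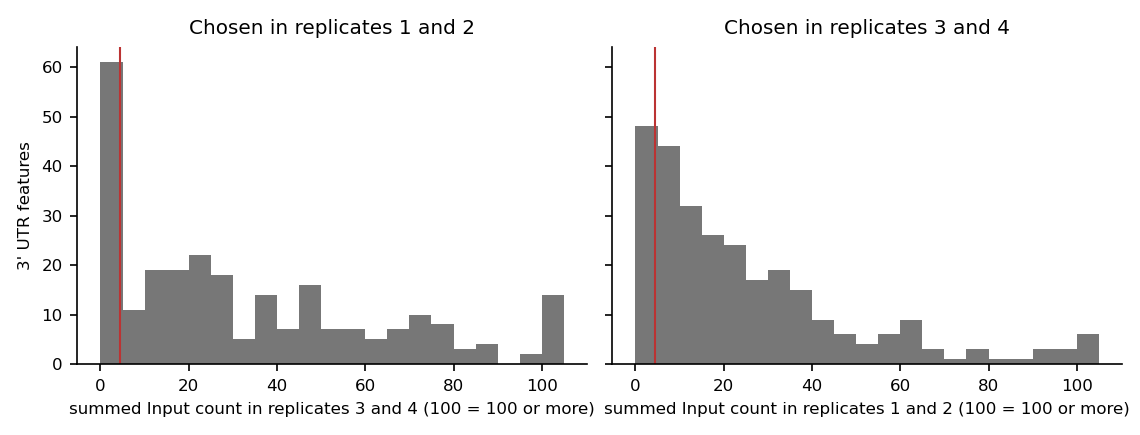
Number of 3′ UTR features (vertical axis) by summed Input count in the pair of replicates that was not used to choose them (horizontal axis, values of 100 or more drawn at 100); the red line marks the limit of 4 counts. To its left lie 61 of the 259 features chosen in replicates 1 and 2 and 48 of the 280 chosen in replicates 3 and 4.

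The control precipitate contained all of the members. The summed IgG IP count per member had a median of 17 and ran from 2 to 99. In IgG IP replicates 1 to 4, 82, 76, 84 and 88 of the 92 had at least 1 count. The mean IgG IP level had a median over members of 19.8 CPM, with quartiles of 12.7 and 29.1 and a range of 1.52 to 113 CPM. All 8680 tested features had a median of 23.5 CPM in IgG IP, and the other 5003 features with at least 100 CPEB4 IP counts one of 47.5 CPM. Among features with 100 to 300 CPEB4 IP counts, the median was 18.8 CPM for the 73 members and 27.2 CPM for the 2362 others. Per kilobase of 3′ UTR in this count range, the IgG IP level was 13.1 CPM at the median of the members and 18.4 CPM at that of the others.

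Summed over the 92, the level was 2314, 2296, 2339 and 2555 CPM in IgG IP replicates 1 to 4, and 4987, 4785, 4105 and 4435 CPM in CPEB4 IP. In Input it was 197, 47.32, 8.098 and 26.71 CPM. The groups did not overlap on this sum, whose Input and CPEB4 IP sides were fixed by the choice of members. As shares of all raw counts in a library, the members held 0.321%, 0.331%, 0.139% and 0.135% in IgG IP replicates 1 to 4. In CPEB4 IP these shares were 0.556%, 0.537%, 0.429% and 0.42%. The even IgG IP sums thus rest on the TMM scaling. For single members, all 4 IgG IP libraries were above all 4 Input libraries in 63 cases (68.5%), against a background of 15.9% of the 8680 features tested and 24.7% of those with at least 100 CPEB4 IP counts. The quasi-likelihood test of edgeR, adjusted by Benjamini-Hochberg, placed IgG IP above Input at an adjusted p of 0.05 for 82 of the 92 members (89.1%), beside 17.5% of all tested features and 27.3% of those with the CPEB4 IP minimum. It placed IgG IP below Input for 0 members, beside 23.9% and 14.9%. Because the rule fixed the Input side of this contrast, nothing is read from the excess.

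**Figure D3:**
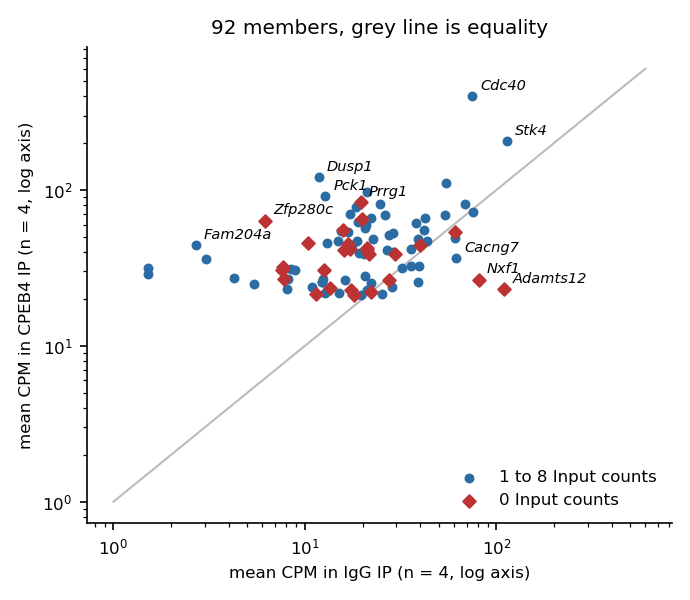
Mean level of each of the 92 members in CPEB4 IP (vertical axis, CPM, log scale) against its mean in IgG IP (horizontal axis, CPM, log scale), n = 4 libraries each; red diamonds had no Input count and blue points 1 to 8. Most points lie above the grey line of equality, Cdc40 stands highest in CPEB4 IP, and Adamts12 and Nxf1 lie below the line.

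Against IgG IP, the CPEB4 precipitate held more of most members. Few differences were called in the fit of all 12 libraries, whose spread includes that between Input libraries. The log2 fold change of CPEB4 IP over IgG IP had a median of 0.993 over the 92, with quartiles of 0.337 and 1.78, and was above 0 for 80 of them. Over all 8680 features tested the median was 0.242, and over the other features with at least 100 CPEB4 IP counts it was 0.629, with 73.8% above 0. A minimum on the CPEB4 IP count favours higher values in this contrast, so the member median is a description. The test called 4 members higher (4.35%) and 1 lower (1.09%), beside 4.57% and 1.3% of all tested features and 7.73% and 1.04% of those with at least 100 CPEB4 IP counts. These shares are near or below the background, so the calls do not set the members apart. With the replicate number as a block, 2 were called higher (background 6.01% and 10.2%) and 1 lower (background 1.73% and 1.65%). The block ended the calls of Prrg1 (adjusted p = 0.0586, edgeR) and Zfp280c (adjusted p = 0.0553, edgeR) and kept those of Cdc40, Dusp1 and Adamts12. DESeq2's Wald test called 8 higher (background 5.71% and 9.68%) and 2 lower (background 5.84% and 4.63%).

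Groups that did not overlap were more numerous. All 4 CPEB4 IP libraries exceeded all 4 IgG IP libraries in 40 of the 92 members (43.5%; background 23.2% of tested features and 36.0% of those with the same minimum). The opposite order held for 2 members, Adamts12 and Nxf1 (2.17%; background 5.91% and 4.87%). A fit of the 8 precipitate libraries alone leaves out the spread between Input libraries. At the same threshold it called 30 members higher (32.6%, background 17.1% and 28.3%) and 2 lower (background 9.0% and 7.71%). Calls and adjusted p per gene below come from the fit of all 12 libraries unless this 8-library fit is named. The 8-library fit called Nxf1 lower (adjusted p = 0.002116, edgeR) and Klf15 higher (adjusted p = 0.02773, edgeR). It did not call Stk4 (adjusted p = 0.05413, edgeR). Within each replicate number, the median member difference of log2(CPM + 1) was 1.24, 1.48, 0.971 and 0.909 for replicates 1 to 4, beside 0.808, 0.978, 0.554 and 0.38 for the other features with at least 100 CPEB4 IP counts. Between 79.3% and 82.6% of the members lay above 0 in each replicate, beside 63.8% to 77.2% of those features.

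RNA processing contributed the member with the highest precipitate level. Cdc40 encodes a splicing factor of the second catalytic step, and its feature spans chr10:40831626-40833178 of mm10 on the minus strand, 1553 bases at the annotated end of the gene. Its level was 398.9, 429.6, 352.9 and 416.3 CPM in CPEB4 IP replicates 1 to 4, from 1911 counts in all. In IgG IP it was 55.84, 31.57, 100.3 and 112.1 CPM, from 72 counts. Input replicate 1 had 7 counts and the other 3 Input libraries had none. Every CPEB4 IP library was above every IgG IP library, and the log2 fold change between them was 2.36 ± 0.60 (SE, adjusted p = 0.02768, edgeR).

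Nxf1, which encodes the main export receptor for mRNA, showed the opposite order. Its feature, chr19:8765276-8766833 on the plus strand, held 62.05, 78.92, 109.4 and 72.73 CPM in IgG IP against 19.26, 17.31, 26.39 and 43.52 CPM in CPEB4 IP, and no Input count. The groups did not overlap, with a log2 fold change of -1.60 ± 0.54 (SE) and an adjusted p of 0.103 in edgeR's test. Dhx35, an RNA helicase, and Hars2, the mitochondrial histidyl-tRNA synthetase, had mean levels of 39.6 ± 6.09 and 26.28 ± 5.95 CPM (SD, n = 4) in CPEB4 IP beside 19.23 ± 5.62 and 16.25 ± 10.3 CPM in IgG IP.

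**Figure D4:**
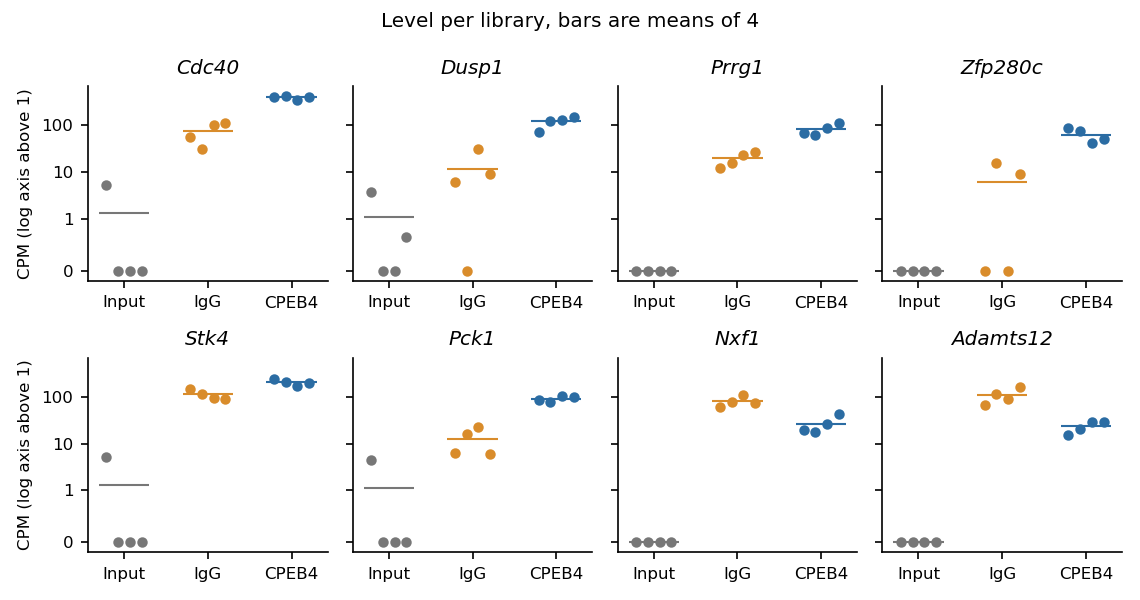
Level in CPM (vertical axis, linear below 1 and logarithmic above) of 8 members in each library of Input, IgG IP and CPEB4 IP; points are replicates 1 to 4 from left to right and bars are means of 4. Input points lie at or near 0 throughout, and CPEB4 IP lies above IgG IP in 6 panels and below it for Nxf1 and Adamts12.

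Signalling enzymes and regulators of small GTPases supplied 14 members. Of these, 1 was called higher against IgG IP, beside 7.73% of tested features with at least 100 CPEB4 IP counts. All 14 had a fold change above 0, with a median of 1.40 on the log2 scale. Among the other features with that minimum, 73.8% were above 0. The lowest of the 14, Pak4 at 0.0626, was at -0.154 in the 8-library fit. Dusp1 encodes a nuclear phosphatase that switches off MAP kinases and is an immediate-early gene. Its 690-base feature, chr17:26505590-26506279 on the minus strand, was at 71.43, 126.7, 133.6 and 154.2 CPM in CPEB4 IP and at 6.205, 0, 31.91 and 9.092 CPM in IgG IP. The IgG IP values rest on 1, 0, 7 and 3 counts, and no library of that group reached the lowest CPEB4 IP library. CPEB4 IP exceeded IgG IP by 3.24 ± 0.80 (SE) on the log2 scale, at an adjusted p of 0.0251 by edgeR. Stk4, the Hippo pathway kinase MST1, has the widest feature of the set, 3693 bases at chr2:164151832-164155524 on the plus strand. It was at 241.6, 208.5, 175.6 and 195.9 CPM in CPEB4 IP and at 148.9, 118.4, 95.73 and 90.92 CPM in IgG IP, the highest mean IgG IP level among the members. The groups did not overlap, but the log2 difference of 0.87 ± 0.57 (SE) did not pass the test (adjusted p = 0.403, edgeR).

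Sipa1l2, a regulator of the small GTPase Rap, was at 112.4, 103.1, 94.0 and 78.53 CPM in CPEB4 IP and between 18.23 and 24.24 CPM in IgG IP. That difference, 2.18 on the log2 scale, had an adjusted p of 0.07723 in edgeR's test. The fit of the precipitate libraries alone called Sipa1l2 higher (adjusted p = 0.0004386, edgeR). Pak4, a serine/threonine kinase, had 20 IgG IP counts and 106 CPEB4 IP counts, with means of 21.04 and 22.79 CPM. Its CPEB4 IP level was 9.631 and 12.59 CPM in replicates 1 and 2 and 32.98 and 35.95 CPM in replicates 3 and 4, the lowest ratio of the first to the second pair among the members.

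Transcription and chromatin factors were the largest role group, with 21 members. Roles were assigned to members alone, so the size of a group has no background to be read against. The test called 1 of the 21, Zfp280c, higher in CPEB4 IP, and 18 had a fold change above 0, with a median of 0.976 on the log2 scale. Of tested features with at least 100 CPEB4 IP counts, 7.73% were called higher, and 73.8% of those outside the set were above 0. Zfp280c, a zinc finger gene on the X chromosome, had no Input count. The level was 86.68, 76.31, 41.23 and 50.15 CPM in CPEB4 IP and 0, 15.78, 0 and 9.092 CPM in IgG IP, where the 5 counts fell in replicates 2 and 4. The groups did not overlap, with a difference of 3.39 ± 0.90 (SE) on the log2 scale and an adjusted p of 0.04221 by edgeR.

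Several regulators known from adipocytes were in this group. Klf15, a Krüppel-like factor that acts in adipogenesis and gluconeogenesis, was at 58.59, 84.97, 37.93 and 55.82 CPM in CPEB4 IP and at 43.43, 15.78, 9.117 and 15.15 CPM in IgG IP. These groups overlapped, and the log2 difference of 1.54 ± 0.90 (SE) did not pass (adjusted p = 0.3407, edgeR). Snai2, the zinc finger repressor Slug, had no Input count and mean levels of 55.25 ± 26.9 CPM (SD, n = 4) in CPEB4 IP beside 15.8 ± 8.28 CPM in IgG IP. Nr3c2, the mineralocorticoid receptor, averaged 41.78 ± 14.3 CPM (SD, n = 4) with anti-CPEB4 against 35.84 ± 34.2 CPM with IgG. Per3, a clock component, averaged 48.91 ± 9.52 CPM with anti-CPEB4 against 60.68 ± 24.4 CPM with IgG, and for both genes the groups overlapped. Dek, a chromatin-binding protein, led the transcription factors without an Input count, with 318 counts in CPEB4 IP, and mean levels of 65.31 ± 29.6 CPM (SD, n = 4) there and 19.79 ± 10.3 CPM in IgG IP.

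Where IgG IP held 3 or fewer counts, the ratio of levels is given with its exact 95% counting interval. Sertad3, a transcriptional coregulator, had 2 IgG IP counts and a CPEB4 IP to IgG IP ratio of 13.6 (3.71 to 114). For Pprc1, a coactivator related to PGC-1, the ratio was 12.2 (3.33 to 102), from 2 IgG IP counts. Fam204a, a gene of unassigned function, reached 19.2 (5.24 to 159), likewise from 2 counts, and Il15ra, which encodes the alpha chain of the interleukin-15 receptor, 10.0 (3.37 to 49.1) from 3 counts. None of the 4 passed edgeR's test in the fit of all libraries (adjusted p = 0.1239, 0.08532, 0.08438 and 0.0827). The fit of the precipitate libraries alone called all 4 higher (adjusted p = 0.01092, 0.00334, 0.002669 and 0.002064, edgeR). The CPEB4 IP levels of Sertad3 and Fam204a also differed between the pairs of replicates. Sertad3 was at 53.77 and 46.42 CPM in replicates 1 and 2 and at 14.02 and 12.3 CPM in replicates 3 and 4. Fam204a was at 67.42 and 65.3 CPM in the first pair and at 27.21 and 17.98 CPM in the second.

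Metabolic enzymes were 6 members, none of them called in the fit of all 12 libraries. Pck1 encodes the cytosolic phosphoenolpyruvate carboxykinase, which serves glyceroneogenesis for fat storage in adipocytes. Its 627-base feature, chr2:173158647-173159273 on the plus strand, was at 85.07, 77.89, 105.5 and 98.4 CPM in CPEB4 IP and at 6.205, 15.78, 22.79 and 6.061 CPM in IgG IP. Input replicate 1 had 6 counts and the other 3 had none. The groups of precipitates did not overlap, and the log2 difference of 2.87 ± 0.83 (SE) had an adjusted p of 0.05302 in edgeR's test, just above the threshold of 0.05 and so not called. Oxsm, a mitochondrial enzyme of fatty acid synthesis, was at 95.51, 72.38, 76.68 and 79.48 CPM in CPEB4 IP and between 18.61 and 33.34 CPM in IgG IP. Mettl7a1, a methyltransferase-like protein, was at 49.76, 88.11, 84.1 and 88.94 CPM in CPEB4 IP and between 12.41 and 23.67 CPM in IgG IP. For both genes the groups did not overlap and the test was not passed (adjusted p = 0.1553 and 0.1163, edgeR). The fit of the precipitate libraries alone called Pck1, Oxsm and Mettl7a1 higher (adjusted p = 0.0002814, 0.003159 and 0.001958, edgeR).

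Receptors, surface and secreted proteins were 5 members and held calls in both directions. Prrg1, a membrane protein with a Gla domain, had no Input count. Its level was 69.02, 63.73, 89.88 and 111.6 CPM in CPEB4 IP and 12.41, 15.78, 22.79 and 27.27 CPM in IgG IP. Again without overlap, the groups differed by 2.03 ± 0.55 (SE) on the log2 scale (adjusted p = 0.04434, edgeR).

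Adamts12, a secreted metalloprotease of the extracellular matrix, was the member called lower. Its feature, chr15:11345678-11346867 on the plus strand, had no Input count and 99 counts in IgG IP, the most of any member. The level was 68.25, 118.4, 91.17 and 160.6 CPM in IgG IP and 15.25, 20.45, 28.86 and 28.38 CPM in CPEB4 IP. Every IgG IP library was above every CPEB4 IP library, with a log2 fold change of -2.24 ± 0.51 (SE) at an adjusted p of 0.02249 by edgeR. This 3′ UTR thus met the rule on CPEB4 IP counts while being more abundant in the control precipitate.

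None of the 5 calls held in every alternative fit. Cdc40 kept its call in 8 of 21 alternatives, Dusp1 and Adamts12 in 8 of 20, Zfp280c in 4 and Prrg1 in 3. Their log2 fold changes kept their sign in all of these, from 1.85 to 2.87 for Cdc40 and from -2.72 to -1.97 for Adamts12. Adjusted p over the alternatives ran from 0.000118 to 0.17 for Cdc40, 0.000415 to 0.21 for Dusp1, 0.00194 to 0.252 for Prrg1, 0.00113 to 0.371 for Zfp280c and 2.46e-06 to 0.229 for Adamts12. Leaving out any single precipitate library, or any replicate number from all groups, ended the calls of Cdc40, Prrg1 and Zfp280c. Dusp1 kept its call only without replicate 3 or IgG IP replicate 3 among these. Adamts12 kept its own only without replicate 3, IgG IP replicate 1 or CPEB4 IP replicate 3.

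Membrane transport and vesicle traffic supplied 10 members, with no call in the fit of all 12 libraries and a median log2 difference of 0.298. Slc10a7, of the bile acid transporter family, was at 67.42, 59.79, 79.98 and 81.37 CPM in CPEB4 IP and at 55.84, 110.5, 45.59 and 90.92 CPM in IgG IP, so the groups overlapped. Cacng7, an auxiliary subunit of glutamate receptors, was at 50.56, 26.75, 31.33 and 37.85 CPM in CPEB4 IP and at 86.87, 71.02, 36.47 and 51.52 CPM in IgG IP. Ccdc115, which acts in assembly of the vacuolar proton pump, was at 65.01, 97.55, 50.3 and 67.18 CPM in CPEB4 IP and between 7.892 and 27.35 CPM in IgG IP. Only the last of these had groups that did not overlap. The 8-library fit called Ccdc115 higher (adjusted p = 0.004105, edgeR) and did not call Slc10a7 or Cacng7 (adjusted p = 0.6437 and 0.08353, edgeR).

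Glycan enzymes made up 6 members, with no call in the fit of all 12 libraries and a median of 1.26. Manea, a mannosidase of the Golgi apparatus, was at 136.4, 128.2, 95.65 and 84.21 CPM in CPEB4 IP and at 68.25, 47.35, 27.35 and 75.76 CPM in IgG IP. The lowest CPEB4 IP library was above the highest IgG IP library by a small margin. St6gal1 and Ggta1, which add sialic acid and galactose to glycans, had mean levels of 54.2 ± 12.4 and 45.55 ± 26.0 CPM (SD, n = 4) in CPEB4 IP beside 15.37 ± 8.91 and 13.01 ± 7.59 CPM in IgG IP. The 8-library fit called St6gal1 and Ggta1 higher (adjusted p = 0.009634 and 0.03724, edgeR) and did not call Manea (adjusted p = 0.06283, edgeR). Cytoskeletal and polarity genes were 4 members, led by Mpp5, the polarity protein PALS1, and Syne3, a nesprin of the nuclear envelope. Syne3 was at 18.61 and 15.78 CPM in IgG IP replicates 1 and 2 and at 95.73 and 84.85 CPM in replicates 3 and 4, beside 56.77 to 81.03 CPM in CPEB4 IP. Protein modification and turnover accounted for 3 members, Fbxl2, Senp5 and Zdhhc17, with no call. The remaining 19 members were not assigned to a role.

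Gene lists were read against the 1.81% of features with at least 100 CPEB4 IP counts that are members, and no list was tested. Of 73 zinc finger genes named Zfp with at least 100 CPEB4 IP counts, 3 were members (Zfp280c, Zfp961 and Zfp319), and of 109 solute carriers, 3 were (Slc10a7, Slc31a2 and Slc25a40). Genes with predicted or RIKEN names supplied 5 of 131. Ion channels supplied 1 of 12, ADAM and ADAMTS proteases 1 of 9, cytokine and growth factor receptors 1 of 35 and immediate-early genes 1 of 20. No member came from the 4 replication-dependent histone features with that depth, the 72 splicing factors of the SR, hnRNP, LUC7 and DDX families, the 24 CPEB and deadenylation genes or the 14 adipocyte markers. Of the fibroblast markers, 5 had that depth and none was a member. Markers of neurons, muscle, endothelium and epithelium had 0 features with that depth, and those of immune cells, germ cells and brown adipocytes 1 each, so these lists could supply few members or none.

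The members had 3′ UTRs of intermediate width. Their median was 1416.5 bases, with quartiles of 943.25 and 1967.8 and a range of 81 to 3693 bases. All 20586 features had a median of 775 bases, and the other features with at least 100 CPEB4 IP counts one of 1748 bases. Long 3′ UTRs were rare among the members: 7 (7.61%) exceeded 3000 bases against 22.7% of those other features, and 0 reached 5000 bases against 5.88%. Members lie near the count minimum, and width goes with count. Among features with 100 to 300 CPEB4 IP counts the median width was 1368 bases for the 73 members and 1370 for the 2362 others, so the difference in the median was not seen at matched counts. The shortage of long 3′ UTRs was still present in that range, where 2.74% of the members and 15.1% of the others exceeded 3000 bases. There, 0 members and 3.3% of the others reached 5000. The Input limit is on raw counts, not divided by width, so the rule itself can select against long 3′ UTRs. The shortage is therefore a description. Of all 20586 features, 9.36% exceeded 3000 bases. Members without an Input count had a median of 1272 bases and those with 1 to 8 counts one of 1462.5.

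**Figure D5:**
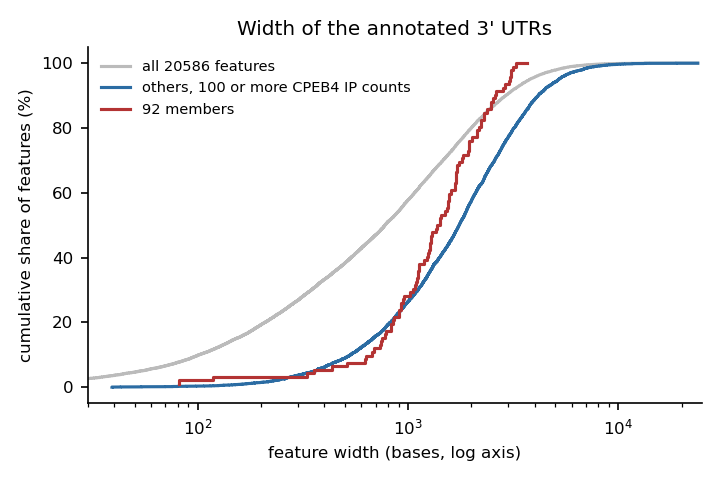
Cumulative share of features (vertical axis, percent) by width of the annotated 3′ UTR (horizontal axis, bases, log scale) for the 92 members, the other features with at least 100 CPEB4 IP counts and all 20586 features. The members' curve ends at 3693 bases and lies between the other curves at their medians of 775 and 1748 bases.

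After Stk4, the widest members were Pkia (3276 bases), an inhibitor of protein kinase A, then Manea (3145), Mpp5 (3077) and Prrg1 (3074). The narrowest with a symbol were Gatad2b (118 bases), a subunit of the NuRD chromatin complex, Pprc1 (331), Ston1 (435), an adaptor of endocytosis, Arhgap5 (514) and Sertad3 (623). An 81-base feature that the file describes as heat shock protein 1B, without a symbol, had 135 CPEB4 IP, 5 IgG IP and 0 Input counts. It overlaps the named feature of Hspa1b on the same strand, which is not a member, so its counts do not stand for that gene. The 81-base feature differed most between the pairs of replicates of all members, with 36.92 and 60.58 CPM in CPEB4 IP replicates 1 and 2 and 5.772 and 4.731 CPM in replicates 3 and 4.

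The position of the features within their genes was compared with RefSeq's annotation of GRCm38.p6, the assembly that mm10 names, in which 88 members matched a gene of the same symbol. Of these, 66 (75%) ended within 50 bases of the end of the gene, and 21 (23.9%) ended more than 200 bases before it. Among the other features with at least 100 CPEB4 IP counts the latter share was 11% (537 of 4900). For members without an Input count it was 37.5% (9 of 24). The 3′ UTR of Fbxl2 ended 18150 bases before the end of the RefSeq gene, that of Klf15 16565, that of Mettl7a1 15653 and that of Lrrfip1 11622. Such features end inside the span of the RefSeq gene, and the transcript forms they belong to were not examined. Adamts12 and Nxf1, the members with the most IgG IP relative to CPEB4 IP, were both of this kind, at 2365 and 4077 bases. Uprt, Gatad2b, Senp5 and Ston1, all without an Input count, ended 4733, 5285, 2836 and 2141 bases before the gene end.

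A few members share reads or place with another annotation. In 9 cases (9.78%) the feature overlapped another of the table, against 11.7% of the other features with at least 100 CPEB4 IP counts. Sp2 appeared as a named and an unnamed feature that differ by 1 base and hold the same 12 counts, so they are 1 observation. Phyhipl and Fam13c, both members, overlap on opposite strands of chromosome 10, and Gm9747 lies opposite the 3′ UTR of Irs1, the insulin receptor substrate. Whether counting used the strand is not stated, so the reads of such pairs cannot be told apart. Phyhipl had 28, 37, 26 and 20 counts in CPEB4 IP replicates 1 to 4 and Fam13c 30, 42, 28 and 21. Each had 5 Input counts, all in replicate 1, so these members may not be separate observations. By chromosome, 8 members (8.7%) lay on X against 2.92% of the other features with at least 100 CPEB4 IP counts, and 2 (2.17%) on chromosome 11 against 8.47%.

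At the limits of the rule, values were continuous. Just inside the Input limit at 8 counts were Tmtc3, Klf15 and Lrp12, with 325, 286 and 264 CPEB4 IP counts, and just outside at 9 were Has2, Ap1ar and Ptpn4, with 303, 276 and 270. There were 11 features at 8 Input counts and 14 at 9. At the other limit, Mdm4 had 101 CPEB4 IP counts and Uprt and Gm17484 had 100, while Ccdc28a, Twistnb and Helz2 had 99, 98 and 96. In the authors' deposited table, which gives an interaction of CPEB4 IP and IgG IP against Input, 0 of the 92 members were called. All 1057 calls in that table had an unadjusted p under 0.05, and 140 of them had no adjusted p, as was the case for 86 members. Of features with a call entry, 2.27% were called higher and 3.28% lower (8.2% and 4.42% of those with at least 100 CPEB4 IP counts). The lowest unadjusted p of a member in that table was 0.0503, for Dusp1 (DESeq2), and 0 members were under 0.05. The members' SEs there were wide, from 1.16 for Fam43a to 2.836 for Sertad3 on the log2 scale. Because the rule fixed the Input side of this interaction, nothing is read from the lack of calls.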

How the data were processed

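The authors deposited raw counts per 3′ UTR (mm10) for 12 libraries. The submitters' processing notes name featureCounts and the aligners Bowtie2 2.2.2 and Bowtie 1.2.3, as well as DESeq2 1.22.1. The counting annotation and strand setting are not given in the sources used here. DESeq2 columns of the authors' deposited table (log2 fold changes, p-values, and calls of 1, 0 or -1, a score) were made by the authors and used only where named.

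Members were selected on the raw counts. Counts were fitted in R 4.3.3 with edgeR 4.0.16 (glmQLFit and glmQLFTest, TMM, 1 coefficient per group, all 12 libraries). The filterByExpr function (min.count 10, min.total.count 15) kept 8680 features, all 92 members among them. Benjamini-Hochberg adjustment ran over these at 0.05. Standard errors are the log2 fold change divided by the square root of F, with a prior count of 0.125. CPM used TMM-scaled library sizes. On simulated data the fit recovered 1.49% of 2-fold, 43.3% of 4-fold and 77.3% of 8-fold changes, with 1 unchanged feature called. Changes were placed only in features above a minimum mean count, with the same baseline in all 3 groups. Members are near absent from Input, so these shares do not give the recovery for members. No molecular identifiers were used, so counting intervals leave out the error from PCR.

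Same-numbered IgG IP and CPEB4 IP libraries deviated together from their group means (r = 0.321, 0.181, 0.32 and 0.287), and every value exceeded 0.1, so the number was also fitted as a block. Different numbers within replicates 1 and 2 or within 3 and 4 correlated by 0.131 to 0.256, so this check, made on the data, hardly separates pairing by number from those pairs. Alternatives covered normalization (DESeq2 1.42.0 size factors, library totals), the low-count filter, the test, the libraries in the fit, the replicate block, left-out replicates and the limits of the rule. IgG IP against Input under the same alternatives was added after the data were seen.

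Members and lists were chosen with earlier results of these data known. Named members, all with a gene symbol, were those with the highest counts in either precipitate, the widest and narrowest, those called, those in a gene list, those at the limits, those overlapping another feature and those differing most between replicate pairs. Role groups, and names outside these, were chosen after the values were seen. Genes were placed with the RefSeq table of GRCm38.p6.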

Additional observations from a re-analysis of the deposited data

Results flagged for a closer look

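Of 91 groups of 4 libraries checked, 5 held a library farther from the other 3 than Dixon's 95% critical value allows, which is near the number that chance gives at that level. Mettl7a1 was at 49.76 CPM in CPEB4 IP replicate 1 and at 84.1 to 88.94 CPM in the others. Pprc1 was at 6.061 CPM in IgG IP replicate 4, from 2 counts, and at 0 in the other 3. Sertad3 showed the same values, 6.061 CPM in replicate 4 and 0 in the other 3. Zfp961, a zinc finger gene, was at 15.78 CPM in IgG IP replicate 2 and at 18.18 to 18.61 CPM in the others. The members' summed level was 2555 CPM in IgG IP replicate 4 and 2296 to 2339 CPM in the others.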

How the results depend on the processing

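The number of members called higher with anti-CPEB4 than with IgG was 4 as reported, 2 with DESeq2 size factors, 1 with a mean count of at least 50 (2 members tested), 8 with DESeq2's Wald test, 30 with the 8 precipitate libraries only, 2 with the replicate block, 1 with replicates 1 and 2 only, 0 with replicates 3 and 4 only and 0 to 1 without any replicate or library. The number called lower was 1 as reported, 0 with library totals, 0 with a mean count of at least 50, 2 with DESeq2's Wald test, 2 with the 8 precipitate libraries only, 0 with either pair of replicates only and 0 to 1 without any replicate or library. Calls fell over all 8680 features as well, from 397 higher and 113 lower as reported to 287 and 120 with replicates 1 and 2 only, 0 and 0 with replicates 3 and 4 only, 2 and 0 without replicate 1 and 32 and 5 without replicate 2, so the loss of calls was not confined to the members. Members with IgG IP above Input numbered 82 as reported, 2 with a mean count of at least 50 (2 members tested), 49 with replicates 1 and 2 only and 62 to 82 without any replicate or library.

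The median log2 difference of the members, 0.993 as reported, was 1.35 with library totals and 0.716 with DESeq2's Wald test, which moved the median of all features from 0.242 to 0.524 and -0.0502. The distance between the medians was 0.751 as reported, and 0.826 and 0.766 under these. Limits of the rule changed the set: 44 features met at most 4 Input counts, 192 at most 16, 196 at least 50 CPEB4 IP counts and 42 at least 200. When a replicate was left out, the limits were scaled to 6 Input and 75 CPEB4 IP counts, which 100 to 167 features met. Without replicate 1, 82 of the 92 remained, and without replicates 2, 3 or 4, 69, 67 and 69. The median width was 1216 bases with at least 50 CPEB4 IP counts and 1676 with at least 200.

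Of 44 named members, 13 changed sign under some setting, none of them past the threshold as reported. With DESeq2 size factors the log2 difference was -0.0477 for Mpp5, -0.12 for Slc31a2, -0.28 for 9230110C19Rik, -0.0699 for Uprt, -0.21 for Gm17484 and -0.19 for Pak4. DESeq2's Wald test gave -0.0351 for Mpp5, -0.13 for Slc31a2, -0.26 for 9230110C19Rik, -0.0931 for Uprt, -0.19 for Gm17484 and -0.21 for Pak4. The 8 precipitate libraries gave -0.0316 for Slc31a2, -0.10 for 9230110C19Rik, -0.0748 for Uprt, -0.24 for Gm17484 and -0.15 for Pak4, and the replicate block -0.0718 for Slc31a2. Library totals gave 0.0507 for Slc10a7 and 0.037 for Gm9747. Replicates 1 and 2 only gave -0.22 for Mpp5, -0.0571 for Pkia, -0.28 for Slc25a40, -0.59 for 9230110C19Rik, -0.10 for Uprt and -0.62 for Pak4. Replicates 3 and 4 only gave 0.23 for Slc10a7, -0.59 for Syne3, -0.71 for Slc31a2 and -0.35 for Gm17484. Without any replicate or library, values ran from -0.52 to 0.40 for 9230110C19Rik, -0.36 to 1.09 for Gm17484, -0.58 to -0.03 for Gm9747, -0.53 to 0.0869 for Mdm4, -0.15 to 0.48 for Mpp5, -0.23 to 0.31 for Pak4, 0.47 to 1.18 for Pkia, -0.52 to 0.23 for Slc10a7, 0.17 to 0.90 for Slc25a40, -0.39 to 0.44 for Slc31a2, -0.12 to 1.10 for Ston1, -0.12 to 0.66 for Syne3 and -0.50 to 0.84 for Uprt. The cause of these shifts was not tested. Counts of 2 to 99 per member over 4 IgG IP libraries limit the precision of every comparison with that group.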
